A study of Mus musculus with 8 samples.

Results

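Mouse embryonic stem (ES) cells without β-catenin were compared with their parental cells while both were under CHIR99021, an inhibitor of the kinase GSK3. The comparison used 4 of the 8 RNA sequencing libraries of the study, chosen by the genotype and treatment in their labels, and described every gene that passed a filter on low counts. Both groups were of the 129/Ola strain, with the blastocyst as their labelled stage, and were grown without feeder cells on gelatin in DMEM with 10% FBS. The parental group (CTNNB1+/+, 2 libraries) and the knock-out group (CTNNB1-/-, 2 libraries) both had 3 μM CHIR99021 for 72 hours. The other 4 libraries came from the same genotypes, 2 each, with the vehicle DMSO at 0.3 μl/ml for 72 hours. The labels do not say how many knock-out lines or clones were used, so genotype and line cannot be told apart. They do not say whether the libraries of a group came from separate cultures. P-values therefore rest on differences between libraries that may be technical replicates.

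β-catenin is a protein of cell junctions and the transcriptional arm of the canonical Wnt pathway. Without a Wnt signal, a destruction complex built on axin and APC lets GSK3 phosphorylate β-catenin, which is then degraded. When GSK3 is inhibited, β-catenin accumulates, enters the nucleus and binds TCF/LEF factors on DNA, where it turns on targets such as Axin2 and relieves repression by TCF7L1. In mouse ES cells GSK3 inhibition is widely used to sustain self-renewal, and in epiblast cells Wnt signalling drives primitive streak genes such as T (brachyury). GSK3 also acts on proteins other than β-catenin, and the inhibitor was present in both groups here.

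Levels are given in CPM, in which the estimated count of a gene is divided by a library total adjusted for composition. They are not corrected for gene length. A log2 fold change is knock-out minus parental in CHIR99021. A gene was called at a Benjamini-Hochberg adjusted p under 0.05 in edgeR's quasi-likelihood test, fitted to all 8 libraries. The standard error after a fold change is approximate: the absolute fold change on the log2 scale divided by the square root of that test's F statistic. The 4 libraries held 24260736 to 27680649 estimated counts. Across genes, replicates correlated at 0.9882 (parental) and 0.9894 (knock-out) on log2 CPM, and libraries of different genotype at 0.9791 to 0.9807.

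Many genes differed, most of them modestly. Of 17739 genes tested, 4200 were called (23.7%), 1990 higher (11.2%) and 2210 lower (12.5%) in the knock-out. The median absolute log2 fold change of the called genes was 0.37, and that of the signed values over all genes was 0.00069. A change over 2-fold was seen in 592 called genes (3.34%), 366 higher (2.06%) and 226 lower (1.27%), and over 4-fold in 74 higher and 76 lower. The libraries of the 2 groups did not overlap for 11068 genes (62.4%). Of the 11016 better expressed genes, whose higher group reached 5 CPM, 32.5% were called, 14.3% higher and 18.2% lower. That is the closer background for well expressed gene groups. Leaving out any 1 of the 4 libraries, which leaves 1 library in its group, lowered the number called. The range is given below with the other settings.

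**Figure D1:**
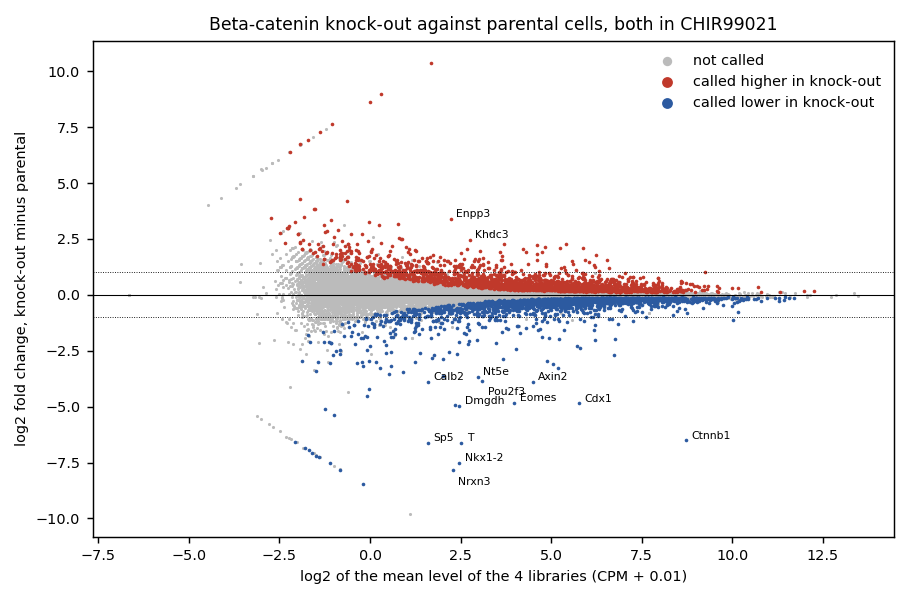
Each point is 1 of 17739 tested genes: log2 of the mean CPM on the x axis, and log2 fold change, knock-out minus parental, under CHIR99021 on the y axis, with called genes coloured. Labels mark the 12 named genes with the lowest fold changes, from -7.85 for Nrxn3 to -3.67 for Nt5e, and the highest pair, Enpp3 at 3.38 and Khdc3 at 2.47; points on the diagonal streaks are genes with no counts in 1 group, whose fitted fold changes are not bounds.

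The targeted gene followed the labels. Ctnnb1, which encodes β-catenin (chr9:120929216-120960507, GRCm38), was at 813 and 843 CPM in the parental libraries and 8.70 and 9.42 CPM in the knock-out libraries. In DMSO it was at 887 and 906 CPM and 7.98 and 10.7 CPM, so the low level marked all 4 knock-out libraries and no parental one. The log2 fold change in CHIR99021 was -6.52 ± 0.089 (adjusted p = 8.49e-12), and a low level of counts remained. Ulk4 overlaps Ctnnb1 on the opposite strand.

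Jup encodes plakoglobin (γ-catenin), the closest relative of β-catenin and a protein of desmosomes and adherens junctions. It was at 127 and 122 CPM in parental and 101 and 97.2 CPM in knock-out libraries, and was lower in the knock-out, with a log2 fold change of -0.33 ± 0.047 (adjusted p = 4.18e-04). Under DMSO the libraries lay at 125 and 128 CPM and 131 and 122 CPM, and the log2 fold change there was -0.0011 (adjusted p = 0.993). The knock-out libraries with CHIR99021 thus lay below the other 6. Cdh1 (E-cadherin), the main partner of β-catenin at the membrane, was at 232 and 244 CPM and 223 and 216 CPM, which did not pass the test (-0.12 ± 0.043, adjusted p = 0.0731). Of 21 measured catenins, cadherins and their partners, 6 were higher and 2 lower, with a median log2 fold change of 0.12. Those higher included Ctnnal1 (α-catulin, 0.60 ± 0.042), the desmosomal plaque protein Pkp2 (0.54 ± 0.086), Nectin3 (0.46) and Cdh3 (0.35), and the other one lower was vinculin (Vcl, -0.16). With 1 library omitted, calls numbered 5 without knock-out replicate 2.

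Core ES cell factors were high in both groups. Pou5f1 (Oct4) was at 1439 and 1389 CPM in parental and 1347 and 1388 CPM in knock-out libraries and did not pass the test (-0.048 ± 0.038, adjusted p = 0.406). Nanog was at 538 and 543 CPM and 493 and 501 CPM, a small difference (-0.12 ± 0.035, adjusted p = 0.0288) that was lost with any 1 of the 4 libraries left out (adjusted p 0.0897 without parental replicate 1, 0.103 without parental replicate 2, 0.154 without knock-out replicate 1 and 0.0948 without knock-out replicate 2). Sox2 was at 229 and 224 CPM and 252 and 249 CPM, a small difference the other way (0.14 ± 0.042, adjusted p = 0.0295), and was also lost with any 1 left out (adjusted p 0.0818 without parental replicate 1, 0.141 without parental replicate 2, 0.145 without knock-out replicate 1 and 0.0963 without knock-out replicate 2). Esrrb was at 746 and 750.2 CPM and 699 and 684 CPM (-0.11 ± 0.039, adjusted p = 0.0538). None of these core factors differed by as much as 2-fold.

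The genes with the lowest fold changes included known Wnt targets, and the sequence before their start sites was searched for the letters that TCF/LEF factors bind. TCF/LEF factors bind a short motif whose core is CTTTGAT, or ATCAAAG on the other strand. Windows of 250 bases before each annotated start came from RefSeq (GRCm38.p6), and both strands were searched. The sequences are shown for Sp5 and Wnt5b, a pair of strongly lower genes with a match, and for Axin2, a lower gene whose window held none. Capitals mark the match, and each runs 5′ to 3′ on the strand of its gene. The windows are chr2:70474673-70474922 (plus strand) for Sp5, chr6:119449387-119449636 (minus strand) for Wnt5b, for which 2 other annotated starts had no match, and chr11:108920099-108920348 (plus strand) for Axin2; none overlaps an annotated exon.
Sp5: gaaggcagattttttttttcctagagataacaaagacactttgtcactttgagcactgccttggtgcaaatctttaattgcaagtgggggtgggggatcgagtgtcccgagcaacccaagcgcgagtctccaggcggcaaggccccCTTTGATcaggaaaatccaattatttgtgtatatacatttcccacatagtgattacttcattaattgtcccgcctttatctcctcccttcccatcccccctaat
Wnt5b: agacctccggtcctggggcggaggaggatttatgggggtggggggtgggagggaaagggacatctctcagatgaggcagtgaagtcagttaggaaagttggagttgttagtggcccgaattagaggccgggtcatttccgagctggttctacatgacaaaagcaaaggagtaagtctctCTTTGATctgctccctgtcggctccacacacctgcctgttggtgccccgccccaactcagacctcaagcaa
Axin2: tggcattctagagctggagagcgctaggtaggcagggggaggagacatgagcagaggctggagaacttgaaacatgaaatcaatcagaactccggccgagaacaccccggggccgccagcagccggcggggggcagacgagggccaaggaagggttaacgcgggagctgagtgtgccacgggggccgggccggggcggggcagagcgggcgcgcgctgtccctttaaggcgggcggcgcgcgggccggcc
The first letter of the match lies 104 bases before the start of Sp5 and 71 bases before that start of Wnt5b. Of the 12 named genes with the lowest fold changes, 9 had a window and only 1 of these, Sp5, held a match. Wnt5b is not among those 12. The motif stood in the windows of 305 of the 11295 tested genes with a window (2.70%), in 7 of 133 genes lower by over 2-fold (5.26%) and in 5 of 230 higher by over 2-fold (2.17%). A match is a description of the letters and not evidence of binding, and its absence from a window says nothing about sites elsewhere.

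Wnt/β-catenin targets were lower in the knock-out. Of 22 measured, 12 were lower and none higher, with a median log2 fold change of -0.67 against 0.00069 over all genes. Their summed level was 525 to 529 CPM in the parental libraries and 281 to 287 CPM in the knock-out libraries. Axin2, a scaffold of the destruction complex that is itself induced by the pathway (chr11:108920349-108950783), was at 42.5 and 41.5 CPM in parental and 2.88 and 2.82 CPM in knock-out libraries. The log2 fold change was -3.88 ± 0.10 (adjusted p = 8.56e-10). Sp5, a zinc-finger factor induced by Wnt signalling, had 162 and 138 counts in the parental libraries and 1 and 2 in the knock-out libraries. After scaling, the parental level was 108 times that of the knock-out, with an exact 95% interval of 36.6 to 527 that covers counting error only (edgeR adjusted p = 3.56e-07). T, the T-box factor of the primitive streak, had 320 and 248 counts against 5 and 1, a ratio of 102 (46.7 to 280; adjusted p = 3.89e-07). Parental and knock-out libraries lay far apart for all 3 genes. In bulk RNA, fewer cells of a type and less RNA per cell cannot be told apart.

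Further targets were lower as well. Cdx1, a caudal-type homeobox factor of the posterior axis, was at 106 and 103 CPM in parental and 3.59 and 3.63 CPM in knock-out libraries (-4.85 ± 0.11, adjusted p = 8.56e-10). Its relative Cdx2 had 35 and 43 counts against 5 and 4. The feedback inhibitor Notum had a log2 fold change of -0.85, Tnfrsf19 -0.82, Msx2 -2.48 and the cyclins Ccnd1 and Ccnd2 -0.37 and -0.64. Myc was also called (-0.23, adjusted p = 0.0368), while in DMSO it was higher in the knock-out (0.37, adjusted p = 0.00834). The 10 that did not pass included the receptor ligases Znrf3 (-0.12) and Rnf43 (-1.16), and Lef1, with 12 and 15 counts against 8 and 23. Apcdd1 (0.39), Bambi (0.29) and Nkd2 (0.18), also not called, had positive values, and the highest log2 fold change in the list was 2.01. Lgr5, Dkk1, Cdx4 and Sp8, other familiar targets, had at most 10 counts in each of the 4 libraries and were not tested.

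The TCF/LEF factors moved in different directions. Tcf7 (TCF1), usually an activator, was at 44.4 and 45.3 CPM in parental and 24.1 and 23.4 CPM in knock-out libraries, lower by a log2 fold change of -0.91 ± 0.060 (adjusted p = 1.57e-06). Tcf7l1 (TCF3), the main repressor of this family in ES cells, was at 27.5 and 25.7 CPM and 48.9 and 44.2 CPM, higher in the knock-out (0.81 ± 0.067, adjusted p = 9.34e-06). Tcf7l2 (TCF4) was higher too (0.40 ± 0.087, adjusted p = 0.00644), a call lost when either of 2 libraries was left out (adjusted p 0.0645 without parental replicate 1 and 0.0588 without knock-out replicate 1). Of 18 measured factors and nuclear partners, 4 were higher, among them the corepressors Tle4 (0.50 ± 0.049) and Tle1 (0.28), and 3 lower, Tcf7, Pygo2 (-0.14) and Kat2a (-0.17). The calls fell to 3 without parental replicate 1 and 4 without knock-out replicate 2.

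The destruction complex differed little in its transcripts. Gsk3a was at 82.1 and 80.6 CPM in parental and 84.0 and 81.5 CPM in knock-out libraries, and Gsk3b at 51.2 and 54.8 CPM and 54.8 and 53.8 CPM, with log2 fold changes of 0.024 ± 0.053 and 0.035 ± 0.053 that did not pass the test. Of 14 measured members, the scaffolds Axin1 (-0.25 ± 0.059) and Amer1 (-0.17 ± 0.053) and the adaptor Dvl1 (-0.22 ± 0.062) were lower and Apc (0.20 ± 0.048) was higher. The 28.6% called lay between the 23.7% over all genes and the 32.5% over those of at least 5 CPM in the higher group. These calls rested on single libraries. Calls in the list were 1 without parental replicate 1, 2 without parental replicate 2 and 0 without knock-out replicate 2.

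Ligands, receptors and secretion factors split evenly, with 6 of 33 measured higher and 6 lower (median 0.31). Porcn, the acyltransferase that Wnt ligands need for secretion, was at 59.8 and 58.5 CPM in parental and 15.4 and 14.4 CPM in knock-out libraries (-1.98 ± 0.060, adjusted p = 3.99e-09). Wnt5b, the ligand whose start is shown above, was at 2.91 and 2.38 CPM and 0.284 and 0.154 CPM (-3.55 ± 0.39, adjusted p = 7.41e-05). The ligand Wnt3a (-1.91), the receptors Fzd10 (-1.06 ± 0.071) and Ror2 (-0.88) and Ryk (-0.18) were lower as well. Sfrp1, a secreted Wnt antagonist, was at 106 and 106 CPM and 175 and 172 CPM (0.71 ± 0.038, adjusted p = 2.94e-07). Fzd7 (0.64 ± 0.042), Fzd1 (1.83), Lgr4 (0.60), Sfrp2 (0.53) and Wnt7b (1.31) were the others higher.

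Primitive streak and posterior factors made up much of the lower extreme. Nkx1-2, a homeobox factor of the streak border and posterior neural plate (chr7:132594878-132599637), had 279 and 268 counts in the parental libraries and 0 and 3 in the knock-out libraries, a ratio of 197 (exact 95% interval 67.1 to 958; adjusted p = 6.30e-07). It lies within the annotated span of Fgfr2 on the same strand. Eomes, a T-box factor of streak and trophoblast, was at 30.5 and 30.4 CPM in parental and 0.994 and 1.16 CPM in knock-out libraries (-4.82 ± 0.12, adjusted p = 8.56e-10). Of 15 measured streak and early mesoderm genes, 6 were lower, Nkx1-2, Sp5, T, Eomes, Cdx2 and Bmp4 (-0.28), and 1 was higher, Nodal (0.17). The summed level was 239.7 to 241 CPM in the parental libraries and 170.1 to 175 CPM in the knock-out libraries. Mixl1 (-0.042) and Tbx6 (-0.24) did not pass, and Mesp1, Gsc, Foxa2 and Evx1 had at most 6 counts a library and Msgn1 none in any.

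Of 9 measured posterior and Hox genes, Cdx1, Cdx2 and Hoxb9 (-0.94 ± 0.21) were lower and 2 were higher, among them the TALE homeobox gene Meis2 (0.95). Hoxb9 lost its call when either of 2 libraries was left out (adjusted p 0.0775 without parental replicate 1 and 0.0580 without knock-out replicate 2). Leaving out 1 library changed the number called to 3 without parental replicate 1 and 3 without knock-out replicate 2. The other 18 genes of the list did not pass the count filter. Of 14 measured trophoblast genes 6 were lower, Eomes, Cdx2, Tead4 (-0.38 ± 0.051), Krt8 (-0.48 ± 0.065), Peg10 (-0.31 ± 0.049) and Ly6a (-0.65), and 1 higher (Gata2, 0.63). Their summed level was 308 to 309 CPM in the parental libraries and 227 to 233 CPM in the knock-out libraries, with Tpbpa at 0 counts in all 4 libraries and Gata3 at 1 to 3. The part of trophoblast cells in these results was not tested.

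**Figure D2:**
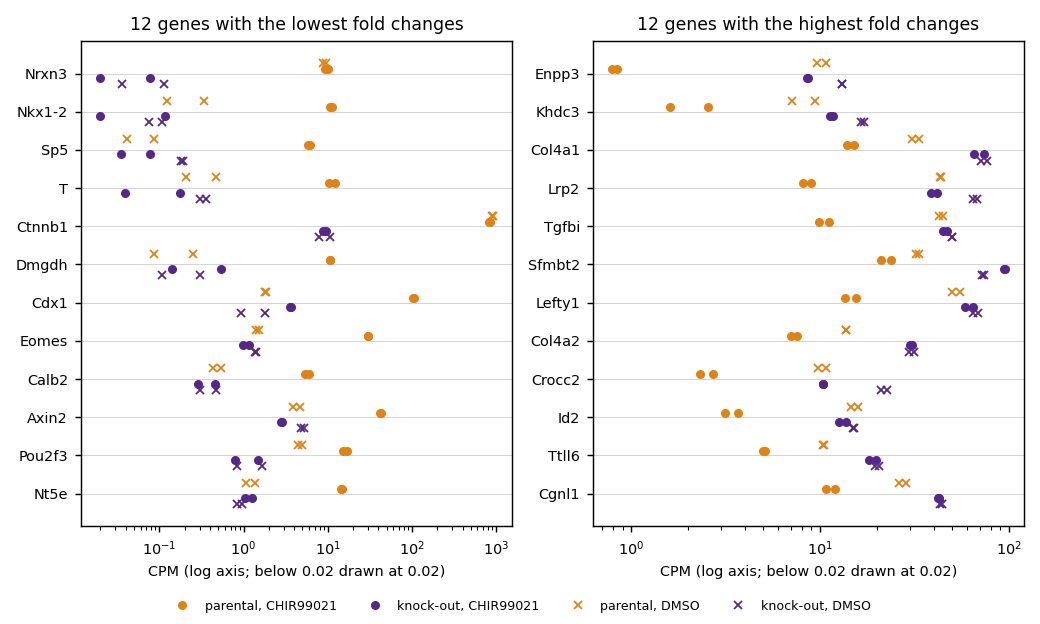
CPM (log axis) in each of the 8 libraries of the 12 genes with the lowest and the 12 with the highest fold changes, in circles for CHIR99021 and crosses for DMSO, orange for parental and purple for knock-out. For 10 of the 12 lowest genes (all but Nrxn3 and Ctnnb1) and all 12 highest, the 2 parental libraries with CHIR99021 lie apart from the other 6 libraries.

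The other genes at the lower extreme have varied roles. Nrxn3 (neurexin 3, a presynaptic adhesion protein) had 242 counts in each parental library and 0 and 2 in the knock-out libraries, a ratio of 262 (72.0 to 2166; adjusted p = 9.13e-08). In DMSO it was at 8.89 and 9.42 CPM in parental and 0.0363 and 0.114 CPM in knock-out libraries. Nrxn3 and Ctnnb1 were thus low in all 4 knock-out libraries, whether with CHIR99021 or DMSO. Dmgdh, a mitochondrial enzyme of choline breakdown, had 281 and 252 counts against 4 and 14 (ratio 32.0, interval 20.1 to 54.4, adjusted p = 4.60e-06). Calb2 (calretinin, a calcium-binding protein) had 140 and 142 against 8 and 12 (ratio 15.2, 9.68 to 25.3, adjusted p = 3.47e-06). Pou2f3, a POU-domain factor, was at 15.2 and 16.8 CPM and 0.781 and 1.47 CPM (-3.84 ± 0.26, adjusted p = 1.76e-06).

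Genes of purine metabolism stood at both extremes. Nt5e (CD73), which converts AMP to adenosine outside the cell, was at 14.5 and 14.8 CPM in parental and 1.24 and 1.04 CPM in knock-out libraries (-3.67 ± 0.16, adjusted p = 5.95e-08). Enpp3, an ecto-nucleotide pyrophosphatase (chr10:24772406-24842823), had the highest fold change of the named genes, with 0.843 and 0.794 CPM in parental and 8.67 and 8.50 CPM in knock-out libraries (3.38 ± 0.14, adjusted p = 4.03e-08). Alpl, the tissue-nonspecific alkaline phosphatase whose activity is a common ES cell stain, was lower (-0.72 ± 0.049, adjusted p = 1.87e-06), and Pnp was higher (0.45 ± 0.041). Of 14 measured genes of this group 3 were higher and 3 lower. Pnp overlaps its near-identical neighbour Pnp2, so its level is uncertain.

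Type IV collagen led a wider group of matrix genes that were higher in the knock-out. Col4a1 (chr8:11198423-11312826) was at 15.2 and 13.8 CPM in parental and 73.9 and 65.6 CPM in knock-out libraries, and Col4a2 (chr8:11312805-11449287) at 7.51 and 6.98 CPM and 29.8 and 30.5 CPM. The log2 fold changes were 2.26 ± 0.082 (adjusted p = 1.42e-08) and 2.05 ± 0.073 (adjusted p = 1.18e-08). These genes encode the chains of the same collagen and lie head to head on opposite strands, with annotated starts that overlap. Of 19 measured basement membrane and matrix genes, 10 were higher and 2 lower (median 0.24), with a summed level of 2882 to 2954 CPM in the parental libraries and 3308 to 3381 CPM in the knock-out libraries. Col18a1 (0.75 ± 0.042), the laminin chains Lama1 (0.58 ± 0.045) and Lamb1 (0.61), perlecan (Hspg2, 0.49) and the collagen chaperone Serpinh1 (0.77) were among those higher, and Lama5 (-0.30) and Fbln1 (-0.46) were lower.

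Markers of primitive and extraembryonic endoderm, a lineage that lays down such a membrane, were higher as well. Of 18 measured, 11 were higher and 1 lower (Apoe, -0.20), with a median log2 fold change of 0.87. Of the 11, Col4a1, Col4a2, Lama1, Lamb1 and Sparc (0.24) also stand in the matrix list. Lrp2 (megalin, an endocytic receptor) was at 8.12 and 8.99 CPM in parental and 41.5 and 38.6 CPM in knock-out libraries (2.23 ± 0.072, adjusted p = 6.21e-09). Its partner Cubn (3.15), the endocytic adaptor Dab2 (1.52) and the factors Gata4 (1.24) and Sox7 (0.96) were higher, while Gata6 (0.79), Hnf4a (0.44) and Pdgfra (0.33) did not pass. The summed level was 746 to 780.1 CPM in the parental libraries and 909 to 958 CPM in the knock-out libraries. Sox17 had 2 to 15 counts a library, and Afp and Ttr had 0 in all 4. In DMSO 8 of the same 18 were higher and 1 lower in the knock-out, with a median of 0.76. The part of endoderm-like cells in these results was not tested.

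The other highest genes belong to separate functions. Khdc3 (Filia), a maternal-effect protein also found in ES cells, was at 1.61 and 2.55 CPM in parental and 11.7 and 11.2 CPM in knock-out libraries (2.47 ± 0.18, adjusted p = 3.59e-06). Tgfbi, a matrix protein induced by TGFβ, was at 9.85 and 11.2 CPM and 46.8 and 45.0 CPM (2.13 ± 0.070, adjusted p = 6.55e-09). Sfmbt2, an imprinted Polycomb-related gene, was at 21.0 and 23.6 CPM and 94.0 and 94.8 CPM (2.08 ± 0.060, adjusted p = 2.54e-09). The rule that named these 3 genes required that their groups did not overlap. Genes linked to cilia and microtubules were among the rest: Crocc2, of the ciliary rootlet family, at 2.30 and 2.72 CPM against 10.4 and 10.3 CPM (2.05 ± 0.12), and Ttll6, a tubulin polyglutamylase, at 4.98 and 5.10 CPM against 19.8 and 18.3 CPM (1.92 ± 0.086). Cgnl1 (paracingulin), a junction protein, was higher by 1.90 ± 0.074.

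General pluripotency genes were mostly higher, while naive ones moved both ways. Of 18 general pluripotency genes 15 were higher and none lower, with a median of 0.26 and a summed level of 6137 to 6157 CPM in the parental libraries and 6939 to 7060.0 CPM in the knock-out libraries. Dnmt3l, a cofactor of de novo DNA methylation, had the largest difference, with 47.7 and 46.5 CPM in parental and 139 and 142 CPM in knock-out libraries (1.58 ± 0.051, adjusted p = 6.21e-09). Dppa2 (0.51 ± 0.043), the Polycomb cofactor Jarid2 (0.49 ± 0.042), Sall1 (0.35 ± 0.034), Lin28b (0.64) and Utf1 (0.58) followed, all below 2-fold.

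Of 22 naive pluripotency genes 8 were lower and 5 higher, with a median log2 fold change of -0.080. The summed level was 8424 to 8478 CPM in the parental libraries and 6777 to 6797 CPM in the knock-out libraries. Most of that fall lay in Tfcp2l1 (-591 CPM in the group mean) and in Tdh (-763 CPM). Tdh is a metabolic enzyme that also stands in the threonine list below. Tfcp2l1, a factor of the naive network, was at 1427 and 1454 CPM in parental and 858 and 841 CPM in knock-out libraries (-0.76 ± 0.033, adjusted p = 5.34e-08). Klf4 was at 279 and 281 CPM and 202 and 200.1 CPM (-0.48 ± 0.039, adjusted p = 8.45e-06), and Nr5a2 (-0.44) and Klf2 (-0.38) were lower too. In the other direction, Fgf4 was at 112 and 111 CPM and 197 and 194 CPM (0.81 ± 0.037, adjusted p = 6.60e-08), and the AKT coactivator Tcl1 was higher (0.62 ± 0.043). Zfp42 (-0.055), Stat3 (-0.053), Prdm14 (0.16) and Dppa3 (0.071) did not pass.

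Of 18 formative and primed epiblast genes 6 were higher and 4 lower. Dnmt3a, a de novo DNA methyltransferase, was at 43.5 and 43.1 CPM in parental and 102 and 106 CPM in knock-out libraries (1.26 ± 0.050, adjusted p = 2.44e-08), and Sall2 (1.01 ± 0.11), Pou3f1 (Oct6, 0.84) and Fgf15 (0.71 ± 0.10) were higher. Fst (-1.51), Etv4 (-0.28 ± 0.043), Etv5 (-0.12) and Dnmt3b (-0.26) were lower, and Otx2 (1.36) did not pass. With 1 library omitted, calls numbered 6 without parental replicate 2. Among 16 DNA methylation and demethylation genes 6 were higher, Dnmt3a, Dnmt3l, Tet1 (0.40 ± 0.038), Tet3 (0.55), Uhrf2 (0.24) and Gadd45a (0.42). Uhrf1, which brings the maintenance enzyme to replicated DNA, was lower (-0.36 ± 0.039), as were Dnmt3b and Tdg (-0.19), and Dnmt1 did not pass (-0.076).

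Responses to other signals were also compared. Pim1, a kinase gene induced through STAT3, was at 139.7 and 138 CPM in parental and 64.5 and 64.8 CPM in knock-out libraries (-1.10 ± 0.042, adjusted p = 1.95e-08). Socs2, a feedback inhibitor of cytokine receptors, was higher (0.50 ± 0.051), as was the LIF receptor Lifr (0.47), while Socs3 (0.065) did not pass. Of 16 LIF/STAT3 response genes 5 were lower and 4 higher, with a median log2 fold change of -0.0093. The summed level was 2769 to 2780.1 CPM in the parental libraries and 2036 to 2065 CPM in the knock-out libraries. Abundant members weigh most in that sum, so its fall does not describe most of the list. In the FGF/ERK list 9 of 20 were higher and 3 lower. The phosphatases Dusp4 (1.20), Dusp5 (0.84) and Dusp6 (0.26), Etv1 (0.67 ± 0.065) and the receptor Fgfr1 (0.37 ± 0.046) were higher, and Spry1 (-0.44), Etv4 and Etv5 (-0.12) lower. Fgfr2 was higher by 2.19 and shares its span with Nkx1-2, which went the other way.

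Nodal/Activin response genes were mostly higher, 9 of 16 against 3 lower. Lefty1, a secreted inhibitor of Nodal, was at 15.6 and 13.6 CPM in parental and 64.7 and 58.3 CPM in knock-out libraries (2.08 ± 0.084, adjusted p = 2.97e-08). Skil, a feedback inhibitor of SMAD signalling, was at 50.5 and 53.9 CPM and 107 and 109 CPM (1.05 ± 0.049, adjusted p = 9.61e-08). The coreceptor Tdgf1 (Cripto) was higher by 0.27 ± 0.041, the activin subunit Inhbb by 0.51 ± 0.039 and Lefty2 by 0.16. Lefty1 and Lefty2 lie in a stretch of chromosome 1 whose genes had a median of 0.18, and Lefty2 was lower in the knock-out with DMSO (-0.33, adjusted p = 0.00416). Follistatin (Fst), which sequesters activin, was lower (-1.51). Among 16 BMP/Id genes, Id2 and Id3, inhibitors of basic helix-loop-helix factors, went opposite ways. Id2 was at 3.68 and 3.14 CPM and 12.6 and 13.7 CPM (1.94 ± 0.11, adjusted p = 4.38e-07), and Id3 at 25.2 and 23.6 CPM and 9.55 and 9.31 CPM (-1.37 ± 0.11, adjusted p = 8.89e-06). Id1 (-0.11) did not pass, and Bmp7 (-0.94 ± 0.13, in a stretch of chromosome 2 where many genes were lower) and Bmp4 (-0.28) were lower.

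Hedgehog pathway genes were higher in 6 of 13 and lower in none (median 0.43). The receptor Ptch1, which Hedgehog signalling induces, was higher by 1.21 ± 0.042, and the effector Gli1 by 0.88 ± 0.044. Ptch1 was at 57.3 and 59.8 CPM in parental and 136 and 135 CPM in knock-out libraries. Hhip, a binding inhibitor and target, was at 0.919 and 0.962 CPM and 4.19 and 3.36 CPM (adjusted p = 3.67e-05). Of 15 Notch pathway genes 4 were higher, Notch1 (0.73 ± 0.068), Rbpj (0.58 ± 0.042), Notch3 (0.50 ± 0.068) and Jag2 (0.43 ± 0.083), and Jag1 (-0.48) was lower, while the targets Hes1 (-0.063) and Hey1 (1.08) did not pass. The share called was 33.3%, against 23.7% over all genes and 32.5% over those of at least 5 CPM in the higher group. Jag1 lies in a stretch of chromosome 2 where 37.0% of tested genes were lower, and without all genes of chromosomes 1 and 2, Notch1 among them, 3 Notch genes were called.

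Neural genes were higher in 9 of 15 measured and lower in none, with a median of 0.55 and a summed level of 146 CPM in each parental library and 206 and 212 CPM in the knock-out libraries. Crmp1, a cytoskeletal protein of growing axons, was at 2.49 and 2.43 CPM in parental and 9.27 and 8.73 CPM in knock-out libraries (1.87 ± 0.11, adjusted p = 8.30e-07). The neuronal tubulin Tubb3 (0.86 ± 0.064), Map2 (0.87 ± 0.11) and Gap43 (1.10 ± 0.14) were higher as well, and so were the neural stem cell filament Nes (0.72) and Sox21 (1.24). Sox1 (0.32) was called, and Pax6 (1.06) and Sox3 (-1.64) were not. Neurog1 and Neurog2 had 0 counts in all 4 libraries, and Dcx and Fabp7 at most 3. The part of neural cells in these values was not tested.

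Markers of other cell types were summed in the same way. The 4 measured of 12 fibroblast and feeder markers summed to 20.8 to 22.4 CPM in the parental libraries and 16.6 to 17.6 CPM in the knock-out libraries, with Postn, Dcn and Lum at 0 counts in all 4 libraries. Pdgfrb was lower (-1.02 ± 0.11). Thy1 was higher (0.38 ± 0.12) with all 4 libraries, but its call was lost with any 1 of them left out (adjusted p 0.228 without parental replicate 1, 0.0610 without parental replicate 2, 0.182 without knock-out replicate 1 and 0.107 without knock-out replicate 2). The 8 measured of 11 heart and skeletal muscle markers summed to 75.0 to 76.7 CPM in the parental libraries and 84.5 to 84.6 CPM in the knock-out libraries: Ttn (0.76 ± 0.087) was higher, and the light chains Myl7 (-1.25 ± 0.22) and Myl4 (-0.75 ± 0.14) lower. The 10 measured of 14 blood and endothelial markers summed to 75.1 to 77.9 CPM in the parental libraries and 99.7 to 100.4 CPM in the knock-out libraries, with Cdh5 (1.90 ± 0.35), Pecam1 (0.36 ± 0.044) and Tek (1.07 ± 0.23) higher and Hbb-bh1, Hba-x and Emcn at 0 counts. Pecam1, which mouse ES cells also express, made up most of that sum, at 65.9 and 69.2 CPM in parental and 86.8 and 87.0 CPM in knock-out libraries. The share of blood and endothelial markers called was 30%, against 23.7% over all genes tested. Tek lost its call when either of 2 libraries was left out (adjusted p 0.0586 without parental replicate 1 and 0.0513 without knock-out replicate 2). The 14 measured of 21 germline markers summed to 150.0 to 150.1 CPM in the parental libraries and 140.1 to 148 CPM in the knock-out libraries, with Oog3 and Asz1 at 0 counts. The share of them called was 14.3%, below the 23.7% over all genes tested. Those called were lower, Nanos3 (-0.75 ± 0.21) and Tex19.1 (-0.21 ± 0.062). Both calls rested on single libraries: for Nanos3 adjusted p 0.136 without parental replicate 2, 0.132 without knock-out replicate 1 and 0.0877 without knock-out replicate 2, and for Tex19.1 adjusted p 0.178 without parental replicate 1, 0.0523 without parental replicate 2 and 0.200 without knock-out replicate 2. Of 12 genes of the 2-cell-like state in the table, 2 were measured and neither passed the test. They summed to 222 to 233 CPM in the parental libraries and 219.8 to 227 CPM in the knock-out libraries, nearly all of it from Eif1a, a general translation initiation factor (mean 226 CPM in parental and 223 CPM in knock-out libraries), while Zscan4f was at 0.272 and 0.283 CPM. The part of such cells in the results was not tested.

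Epithelial and mesenchymal genes gave no single direction. Of 19 tight junction and simple epithelium genes 4 were higher, among them the epithelial factor Grhl2 (0.85 ± 0.16), and 3 were lower, St14 (-0.57 ± 0.074), Krt8 (-0.48) and Cldn3 (-1.45). The calls fell to 4 without parental replicate 1. Of 13 mesenchymal transition genes Tgfbi, Zeb1 (0.37 ± 0.068), Zeb2 (1.33) and the integrin Itga5 (0.47 ± 0.043) were higher, and fibronectin (Fn1, -0.48 ± 0.038) and Itgb3 (-0.37) lower. Fn1 was at 1212 and 1165 CPM in parental and 872 and 826 CPM in knock-out libraries, and Snai1 (-0.16) and Vim (-0.069) did not pass.

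Genes of the G1 and S phases were lower in 17 of 25 and higher in 4, with a median of -0.26 and a summed level of 6464 to 6481 CPM in the parental libraries and 5413 to 5440.4 CPM in the knock-out libraries. Cdkn1a (p21), an inhibitor of cyclin-dependent kinases, was at 85.2 and 79.3 CPM in parental and 38.2 and 35.8 CPM in knock-out libraries (-1.15 ± 0.057, adjusted p = 1.65e-07). Cdkn1c (p57), another inhibitor and an imprinted gene, went the other way at 11.8 and 13.1 CPM and 35.8 and 36.8 CPM (1.55 ± 0.069, adjusted p = 6.60e-08). Cyclin D3 (Ccnd3, -0.63 ± 0.050), Ccne1 (-0.34) and E2f1 (-0.31) were lower, as were Pcna (-0.48 ± 0.035) and the helicase subunits Mcm3 to Mcm7, at -0.30 for Mcm4. Myc (-0.23) was lower and Mycn (0.29) higher. Among 22 mitotic genes 9 were lower and 2 higher, but 6 of the 11 called lie in stretches of chromosomes 1 and 2 where many genes shifted, among them Ube2c (-0.45 ± 0.059), Aurka (-0.33 ± 0.044) and Bub1b (-0.23 ± 0.037). Calls in the list were 7 without knock-out replicate 2.

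p53 response genes were higher in 11 of 20, and Cdkn1a was the 1 lower. Sesn2 (0.34 ± 0.043), Mdm2 (0.41 ± 0.056), Eda2r (0.55 ± 0.070) and Plk2 (0.54) were higher, and Bax (-0.011) and Bbc3 (0.11) did not pass. Of 18 genes of the unfolded protein and integrated stress responses 7 were lower, including asparagine synthetase (Asns, -0.74 ± 0.044), Atf4 (-0.25) and Atf3 (-0.69), and 4 were higher, including Xbp1 (0.50 ± 0.056). Leaving out 1 library changed the number called to 7 without knock-out replicate 2. NRF2 antioxidant genes gave 4 higher and 3 lower of 17, with Cbr1 (-0.33 ± 0.058) and G6pdx (-0.27 ± 0.052) lower. With 1 library omitted, calls numbered 3 without parental replicate 1, 4 without parental replicate 2, 2 without knock-out replicate 1 and 2 without knock-out replicate 2.

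Sterol synthesis was the most uniform metabolic group. Of 25 genes 20 were lower and none higher, at a median of -0.37 and a summed level of 2131 to 2166 CPM in the parental libraries and 1709 to 1716 CPM in the knock-out libraries. Ebp, the emopamil-binding sterol isomerase, was at 42.2 and 39.8 CPM in parental and 17.5 and 18.1 CPM in knock-out libraries (-1.21 ± 0.074, adjusted p = 8.78e-07). Insig1, a sterol-sensing regulator, was at 62.6 and 62.2 CPM and 40.7 and 39.8 CPM (-0.63 ± 0.056, adjusted p = 1.48e-05). Squalene synthase (Fdft1, -0.58 ± 0.042) and lanosterol synthase (Lss, -0.44 ± 0.048) were lower too. Srebf2, which encodes the factor that drives these genes, did not pass (-0.071). Fdft1 overlaps Ctsb on the opposite strand, which was lower as well (-0.23). In DMSO 4 of the 25 were lower and none higher.

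Fatty acid genes were lower in 10 of 18 and higher in 3. The desaturases Scd2 (-0.57 ± 0.036) and Scd1 (-0.43 ± 0.048), fatty acid synthase (Fasn, -0.26) and the mitochondrial importer Cpt1a (-0.44 ± 0.039) were lower. Slc27a2, a fatty acid transporter, was higher at 1.03 and 0.585 CPM in parental and 3.52 and 3.32 CPM in knock-out libraries (2.06 ± 0.23, adjusted p = 7.73e-05).

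Of 13 threonine, glycine and choline genes 7 were lower and none higher. Tdh, the threonine dehydrogenase on which mouse ES cells depend, was at 1419 and 1423 CPM in parental and 661 and 654 CPM in knock-out libraries (-1.11 ± 0.037, adjusted p = 6.55e-09). Its partner enzyme Gcat was at 62.2 and 63.9 CPM and 40.8 and 41.8 CPM (-0.61 ± 0.060, adjusted p = 3.35e-05). Mthfd2 (-0.23 ± 0.038) and Bhmt (-1.32) were also lower, beside Dmgdh. Glycolysis and hypoxia genes were lower in 9 of 23, with Aldoc (-0.58 ± 0.094), the glucose transporter Slc2a3 (-0.38 ± 0.033), Tpi1 (-0.29 ± 0.041) and Aldoa (-0.24 ± 0.041) among them, and higher in 1 (Ndrg1, 0.66). The calls fell to 5 without parental replicate 1, 6 without knock-out replicate 1 and 5 without knock-out replicate 2. Nuclear-encoded respiratory chain subunits were lower in 8 of 26, all by small amounts such as -0.23 ± 0.044 for Uqcrc1. The 30.8% called was near the 32.5% over genes of at least 5 CPM in the higher group. Calls in the list were 2 without parental replicate 1, 3 without parental replicate 2, 1 without knock-out replicate 1 and 2 without knock-out replicate 2.

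Of 17 glycogen genes Pgm2 (0.50 ± 0.061) was higher and Pygb (-0.28 ± 0.083) and Phka2 (-0.26 ± 0.079) lower. By DESeq2 neither Pygb (adjusted p 0.168) nor Phka2 (adjusted p 0.181) was called. The edgeR call of Phka2 was lost with any CHIR99021 library left out, and that of Pygb with any but knock-out replicate 2. The 17.6% called was below the 23.7% over all genes tested. Leaving out 1 library changed the number called to 1 without parental replicate 1 and 1 without parental replicate 2. Lysosome and autophagy genes were lower in 9 of 33, including Ctsa (-0.48 ± 0.048) and Map1lc3b (-0.26 ± 0.048), and higher in 5, including Flcn (0.26 ± 0.051). With 1 library omitted, calls numbered 7 without parental replicate 1, 8 without parental replicate 2, 9 without knock-out replicate 1 and 6 without knock-out replicate 2. Interferon and antigen presentation genes were even at 4 and 4 of 17, with Ifitm1 (0.78 ± 0.072) higher and H2-K1 (-0.61 ± 0.067) and Irf1 (-0.49 ± 0.075) lower. The calls fell to 5 without parental replicate 1, 5 without parental replicate 2, 4 without knock-out replicate 1 and 4 without knock-out replicate 2.

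Of 23 imprinted genes 6 were higher and 4 lower. Grb10, a growth-restraining adaptor, was at 251 and 268 CPM in parental and 132 and 127 CPM in knock-out libraries (-1.01 ± 0.045, adjusted p = 6.86e-08). Igf2 was at 3.26 and 3.26 CPM and 7.46 and 8.11 CPM (1.25 ± 0.14, adjusted p = 7.15e-05), and Phlda2 (0.59 ± 0.061) was also higher. Plagl1, a zinc-finger factor, was called lower from a low level, with 0.728 and 0.878 CPM against 0.0355 and 0 CPM (adjusted p = 0.00135). Cytosolic ribosomal protein genes were lower in 7 of 24 and higher in 1 (Rpl5, 0.27 ± 0.047), at a median of -0.11. The 33.3% called was near the 32.5% over genes of at least 5 CPM in the higher group. Calls in the list were 3 without parental replicate 1, 4 without knock-out replicate 1 and 2 without knock-out replicate 2.

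**Figure D3:**
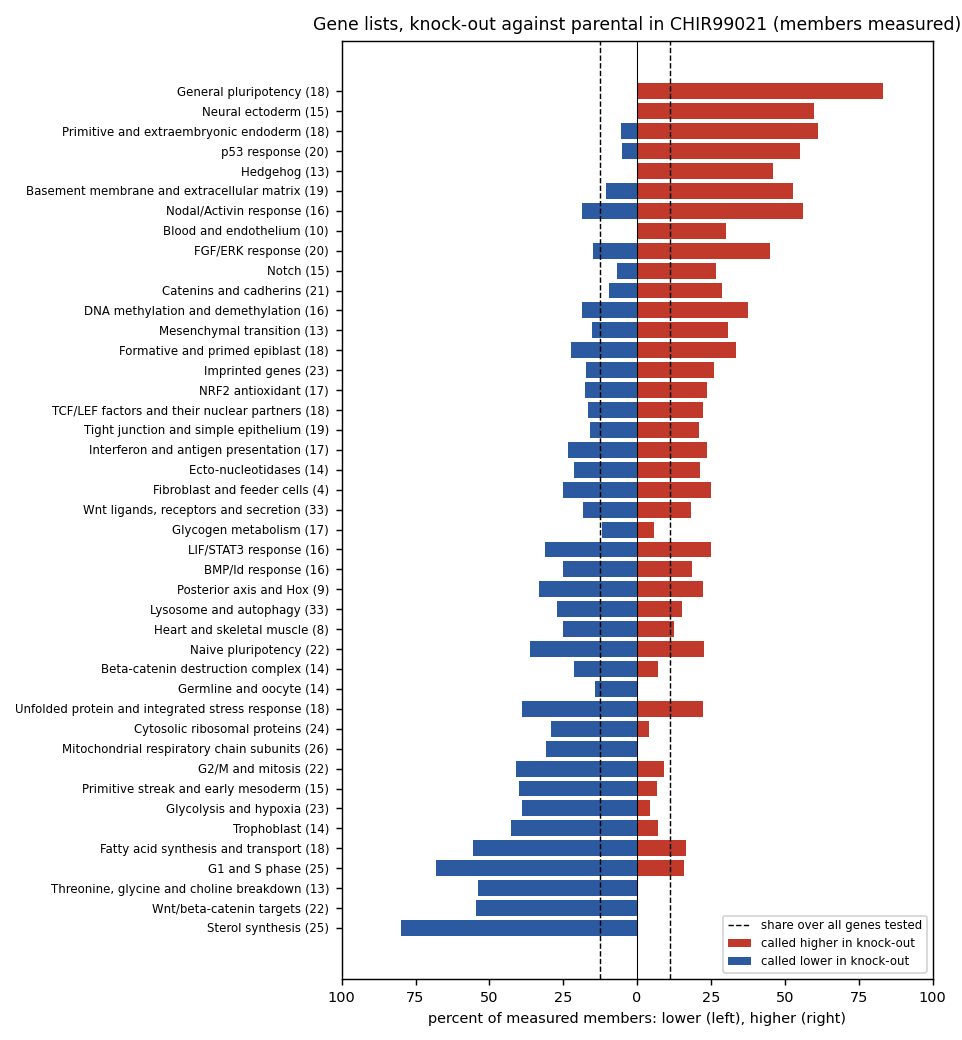
Percent of the measured members of each gene list (number in brackets) that were called higher (bars to the right) or lower (bars to the left) in the knock-out under CHIR99021, with dashed lines at the shares over all genes tested, 11.2% and 12.5%. General pluripotency (15 of 18 higher) and sterol synthesis (20 of 25 lower) stand at the ends. Over genes of at least 5 CPM in the higher group, the closer background for well expressed lists, the shares were 14.3% higher and 18.2% lower (not drawn).

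By amount of transcript, in CPM not corrected for length, the largest differences were in abundant genes. The largest fall was in Ctnnb1, followed by Tdh, Tfcp2l1, the predicted gene Gm10116 (2825 and 2658 against 2286 and 2239 CPM), Rpl7 (2921 and 2965 against 2486 and 2579 CPM) and prothymosin α (Ptma, 3526 and 3546 against 3116 and 3238 CPM). The largest rises were in mt-Atp6 (4494 and 4752 against 5015 and 5354 CPM) and mt-Co3 (3813 and 3833 against 4249.9 and 4351 CPM), subunits encoded by the mitochondrial genome that overlap each other. The actin regulator Enah (394 and 410.0 against 804 and 825 CPM), the RNA-binding protein Hnrnpu (1430.0 and 1517 against 1855 and 1915 CPM), the ubiquitin ligase Trip12 (999.8 and 1047 against 1258 and 1298 CPM) and Gm38312 (2417 and 2437 against 2649 and 2684 CPM) came next. Calls for mt-Atp6 (adjusted p 0.195 without parental replicate 1 and 0.238 without knock-out replicate 2), Gm38312 (adjusted p 0.0784 without parental replicate 1, 0.0530 without parental replicate 2, 0.0776 without knock-out replicate 1 and 0.106 without knock-out replicate 2) and Ptma (adjusted p 0.0958 without knock-out replicate 1) were lost without single libraries. Rpl7, Ptma and Gm10116 belong to families with near-identical copies, so reads may be shared among them.

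The called genes were not spread evenly over the chromosomes. On chromosome 1, 17.3% of tested genes were higher and 7.20% lower, and on chromosome 2, 8.24% were higher and 25.6% lower. From 160 Mb to the end of chromosome 1, a stretch chosen after the values were seen, 87 of 302 genes were higher and 8 lower, with a median log2 fold change of 0.18 here and 0.16 in DMSO. From 100 Mb to the end of chromosome 2, chosen likewise, 286 of 772 were lower and 43 higher, with a median of -0.19 in both. Elsewhere 11.2% were higher and 11.5% lower. Of the called genes described, Lefty1, Lefty2, Enah, Hnrnpu and Atf3 lie in the chromosome 1 stretch, and Lgr4, Lama5, Dnmt3b, Bmp7, Jag1, Meis2, Ctsa, Slc27a2, Pygb, Pcna, E2f1, Ube2c, Aurka, Bub1b and Sdc4 in the chromosome 2 stretch. Lefty2 (0.16) and Dnmt3b (-0.26) lay near the medians of their stretches. Without all genes of chromosomes 1 and 2, 3414 genes were called, with 5 of the mitotic list and 3 of the posterior and Hox list.

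On the Y chromosome 7 of 20 tested genes were higher and 1 lower. Ddx3y, an RNA helicase, was at 32.4 and 36.5 CPM in parental and 113 and 121 CPM in knock-out libraries (1.77 ± 0.088, adjusted p = 1.65e-07), and at 31.2 and 29.4 CPM and 89.2 and 108 CPM in DMSO. Uty was higher by 1.10 ± 0.064 and Eif2s3y by 0.50 ± 0.044. These genes were named after their values were seen, and the difference separates the knock-out libraries from the parental ones with either treatment.

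**Figure D4:**
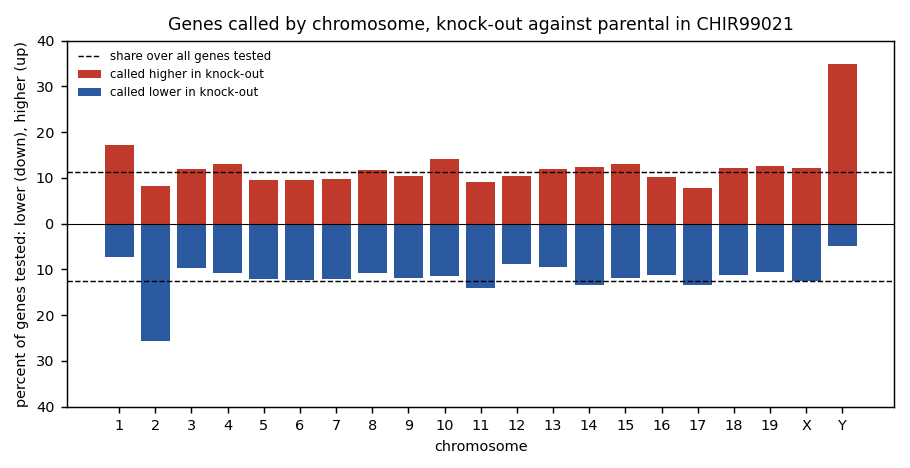
Percent of tested genes called higher (bars up) or lower (bars down) in the knock-out under CHIR99021 on each chromosome, with dashed lines at the shares over all genes. Chromosome 1 has the tallest bar up among the autosomes (17.3%) and chromosome 2 the tallest bar down (25.6%); the Y bar rests on 20 genes.

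The same genotypes were compared in DMSO, and the difference between the comparisons was tested as an interaction. In DMSO 1198 genes were called (6.75%), 556 higher and 642 lower. Of the genes called in CHIR99021, 780 were called in DMSO in the same direction, which is 18.6% of the CHIR99021 calls and 65.1% of the DMSO calls, and 30 in the opposite direction. The interaction was called for 1087 genes (6.13%), of which 982 were also called in CHIR99021. Of the 592 genes past 2-fold in CHIR99021, the interaction was called for 242, 115 of them lower and 127 higher. The interaction tests use the parental and knock-out CHIR99021 libraries too, so they are not separate evidence for the values above.

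Wnt targets differed between the genotypes with CHIR99021 far more than with DMSO. Of the 12 called in CHIR99021 none was called lower in DMSO, where 1 of the 22 was higher, and the interaction was called for 12 of the 22. Axin2 was at 3.86 and 4.69 CPM in parental and 5.18 and 4.84 CPM in knock-out libraries with DMSO, a log2 fold change of 0.23 ± 0.11 (adjusted p = 0.318), and its interaction was -4.11 (adjusted p = 2.68e-07). T was at 0.472 and 0.207 CPM and 0.363 and 0.305 CPM in DMSO, and Cdx1 at 1.80 and 1.83 CPM and 0.943 and 1.79 CPM, with interactions of -6.60 and -4.44. For these 3 genes the knock-out libraries with CHIR99021 lay much closer to the DMSO libraries of both genotypes than to the parental libraries with CHIR99021. Tcf7l1 was at 53.5 and 57.7 CPM and 60.8 and 62.7 CPM in DMSO, and its interaction was 0.66 (adjusted p = 0.00141).

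Genes higher in the knock-out differed in their DMSO values. Enpp3 was at 9.62 and 10.7 CPM in parental and 13.1 and 13.0 CPM in knock-out libraries with DMSO, and Id2 at 14.6 and 15.9 CPM and 14.9 and 15.1 CPM. In both the parental CHIR99021 libraries were the low ones, with interactions of 3.02 (adjusted p = 4.14e-06) and 1.97 (adjusted p = 1.25e-05). Col4a1 was higher in the knock-out with DMSO as well, at 30.5 and 33.4 CPM and 76.5 and 71.0 CPM (1.20 ± 0.075, adjusted p = 1.06e-05), and its interaction was 1.06 (adjusted p = 2.27e-04). Dnmt3l was at 75.8 and 75.2 CPM and 176 and 161 CPM in DMSO (1.16 ± 0.049, adjusted p = 9.44e-07), with an interaction of 0.42 (adjusted p = 0.00437). Ctnnb1 and Nrxn3 lay at similar folds with both treatments, at -6.59 and -6.85 in DMSO.

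**Figure D5:**
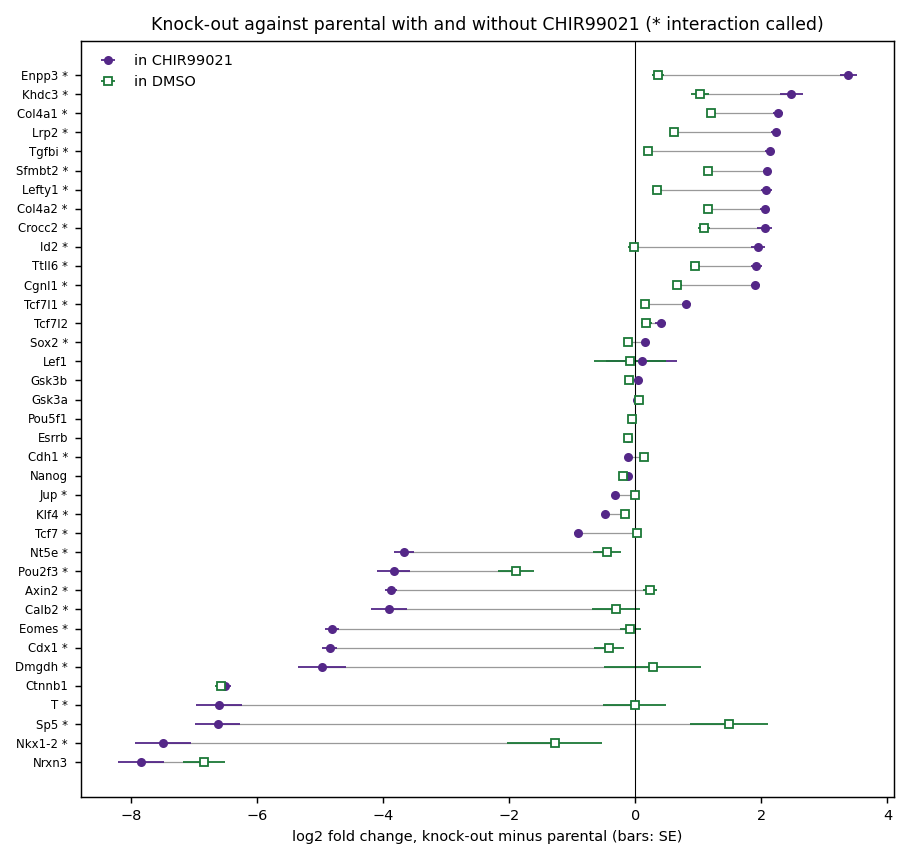
Log2 difference between knock-out and parental cells for the genes named by fold change or by name. Filled circles are for CHIR99021 and open squares for DMSO, with bars of 1 approximate standard error. An asterisk marks a called interaction. The lines joining the points are long for Sp5, T, Nkx1-2, Cdx1 and Axin2 and short for Ctnnb1. The line of Nrxn3 runs from -7.85 to -6.85, and its interaction was not called.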

How the data were processed

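Polyadenylated RNA was sequenced from TruSeq Stranded mRNA libraries, per the labels' protocols. The authors deposited a table of estimated counts per gene (expected counts, 1 column per library), which they made with kallisto (version not stated) on build GRCm38.p4, per the submitters' processing notes. The transcript set, the summing of transcripts to genes and the strand setting are not given in the sources used here. Groups came from the labels, and columns were matched to libraries by title.

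Counts were rounded to whole numbers. edgeR 4.0.16 in R 4.3.3 (filterByExpr by group, minimum 10 counts and 15 in total) kept 17739 of 48440 genes, with 99.905% to 99.918% of the counts. Totals of 23650572 to 27680649 per library set the precision. Trimmed-mean factors were 0.9857 to 1.0181, and all 8 libraries entered 1 quasi-likelihood fit of group means (4 residual degrees of freedom), with 2-sided tests adjusted by Benjamini-Hochberg over all genes. The common biological coefficient of variation was 0.053, and replicates differed by 3.26 to 4.86 times the counting variance (chi-square per degree of freedom). Intervals of count ratios are exact binomial and cover counting error only. The procedure was tested on simulated data. Some genes are not reported here.

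The comparison, the 44 gene lists and the rule for named genes were chosen with earlier results of these data known. The rule takes Ctnnb1 and 17 chosen genes, the 12 highest and 12 lowest fold changes among called genes of at least 5 CPM whose groups did not overlap and whose symbol is no clone name, the 6 largest rises and falls in CPM, and up to 4 members a list by adjusted p, with others as values. Coordinates are from GENCODE M21 (GRCm38), for 17680 tested genes. Of 181 named genes 52 overlap another tested gene, 38 on the opposite strand, so reads may have been split between them. The alternatives tried were DESeq2 1.42.0, limma-voom (limma 3.58.1), other size factors, other filters, the 4 libraries alone, a replicate block, a stricter threshold, omission of chromosomes 1 and 2, and omission of each library.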

Additional observations from a re-analysis of the deposited data

Results flagged for a closer look

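For 33 genes named by fold change, level or name, and 3 more that were called in opposite directions with CHIR99021 and DMSO, the difference between the genotypes itself differed between the treatments (edgeR's interaction test, adjusted p under 0.05, 2 libraries a group). The values below are interactions on the log2 scale, the knock-out minus parental difference in CHIR99021 minus that in DMSO.

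Interactions were negative, with the knock-out lower relative to parental cells under CHIR99021 than under DMSO, for the developmental factors and Wnt targets Sp5 (-8.12), T (-6.60), Nkx1-2 (-6.22), Eomes (-4.73), Cdx1 (-4.44) and Axin2 (-4.11). Dmgdh (-5.25), Calb2 (-3.60), Nt5e (-3.22) and Pou2f3 (-1.94) were negative too. Smaller ones were seen for Tcf7 (-0.93), Tdh (-0.75), Tfcp2l1 (-0.58), Jup (-0.33), Klf4 (-0.32) and Cdh1 (-0.25). Fitted values of genes with few counts in the knock-out, such as Sp5 and T, depend on the prior count.

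Positive interactions were largest for Enpp3 (3.02), Id2 (1.97), Tgfbi (1.94), Lefty1 (1.74), Lrp2 (1.62), Khdc3 (1.45), Cgnl1 (1.23) and Col4a1 (1.06). Ttll6 (0.97), Crocc2 (0.96), Sfmbt2 (0.93), Col4a2 (0.91), Enah (0.87) and Tcf7l1 (0.66) were below 1, and Trip12 (0.28), Sox2 (0.26) and mt-Co3 (0.22) were small.

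Tcl1 (0.80) was higher in the knock-out with CHIR99021 and lower with DMSO, and Tex19.1 (-0.74) and Peg10 (-0.56) were the reverse, with both differences called. Of a further 133 genes named for their lists alone, 70 had the interaction called, against 6.13% of all genes tested. Those 133 were picked by their adjusted p in CHIR99021, and the interaction contains that same comparison. A high share is therefore built in by the choice and is no result about these genes. The same holds for the genes named by fold change.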

How the results depend on the processing

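The count of genes called in CHIR99021, 4200 by edgeR, was 2709 by DESeq2, 2403 at an adjusted p under 0.01 and between 3414 and 4903 under the other settings that kept all libraries. Leaving out 1 library gave 2509 to 4353. Called genes past 2-fold numbered 592, and 368 by DESeq2, 218 with the stricter filter and 456 to 597 with 1 library left out. The DMSO count, 1198, was 795 by DESeq2, 2064 without a filter, 411 at 0.01, 688 without chromosomes 1 and 2, and 357 to 1047 with 1 library left out (357 and 510 without parental DMSO replicates 1 and 2, and 561 and 717 without knock-out DMSO replicates 1 and 2). The interaction count, 1087, was 1990 without a filter, 509 at 0.01, and 605 to 1143 with 1 left out (700 without parental DMSO replicate 1, 628 without parental CHIR99021 replicate 1, 691 without knock-out DMSO replicate 1 and 605 without knock-out CHIR99021 replicate 2). Of 181 named genes 30 lost or gained their call under 1 or more of the 17 alternatives, and no called gene reversed in those that gave it a value. All 17 gave a value for 141, of which 119 kept their call; the other 40 lacked one under 1 or more, mostly because the setting leaves out chromosomes 1 and 2 or low genes. Of the 44 gene lists, 9 moved by over 1.5 times by DESeq2: Wnt ligands and receptors 7 against 12, lysosome 8 against 14, interferon 4 against 8, NRF2 3 against 7, posterior 3 against 5, destruction complex 2 against 4, glycogen 1 against 3, fibroblast 1 against 2 and germline 0 against 2. Without a filter the ribosomal list gave 16 against 8 and the fibroblast list 1, with the stricter filter blood and endothelium 1 against 3, germline 1 and posterior 2, and at 0.01 there were 11 such lists. The cause of these shifts was not tested, apart from the smaller number of libraries or genes in some settings. With the replicate number as a block 4296 genes were called, 4075 of them shared. Same-numbered libraries of the 2 CHIR99021 groups correlated at 0.0582 in their deviations, so the numbers were not taken as pairs. The 2 libraries a group limit what can be called: the median standard error over all genes was 0.10 on the log2 scale. A difference must be several times its own standard error to be called. Nanog at -0.12 ± 0.035 was called, for example, and Cdh1 at -0.12 ± 0.043 was not. For most genes, differences of 0.10 are therefore not resolved.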

Other observations

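A set of 30 genes was called in both comparisons of the genotypes but in opposite directions. Sdc4, a syndecan of cell adhesion, was lower in the knock-out with CHIR99021 (-0.55, adjusted p = 1.59e-04) and higher with DMSO (0.51, adjusted p = 0.00260). Unc5b, a netrin receptor, had values of -0.51 and 0.60, and the laminin chain Lama5 (-0.30 and 0.37) went the same way. In the other order, the cholesterol exporter Abca1 was higher with CHIR99021 (0.46, adjusted p = 3.42e-04) and lower with DMSO (-0.47, adjusted p = 0.00126), as were Ldhb (0.51 and -0.16) and the fatty acid binding protein Fabp3 (0.18 and -0.65). These genes were chosen after their values were seen.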
